A study of Mus musculus with 31 samples.

Results

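The response to lipopolysaccharide (LPS) was compared between bone-marrow macrophages of MyD88-/- and wild-type mice. The arrays were chosen by their titles, which name the genotype, the stimulus, the mouse and the dye orientation, and they are 15 of the 31 arrays of the study, from 8 of its 16 pairings of a mouse with a stimulus. Marrow came from C57BL/6J mice 6 to 8 weeks old, either wild-type or deficient in MyD88, and was grown for 8 days with L929-conditioned medium, a source of the macrophage growth factor CSF-1. The wild-type LPS group (4 mice, 8 arrays) and the MyD88-/- LPS group (4 mice, 7 arrays) both received 10 ng/mL of re-purified E. coli LPS for 2 hours. On every array the stimulated RNA of a mouse was hybridised beside RNA of cells of the same mouse given medium only, called mock. Wild-type and MyD88-/- groups given live E. coli at 1 bacterium per macrophage for 2 hours (4 mice each) are used below for side-by-side values. The labels do not name the MyD88 allele, and do not say whether the mice were littermates or whether the LPS and E. coli arrays of a mouse used the same mock RNA.

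LPS is the outer-membrane glycolipid of Gram-negative bacteria and is sensed on macrophages by Toll-like receptor 4 with the help of CD14 and MD-2. The receptor signals through paired adaptors. MyD88 with MAL recruits the IRAK kinases and TRAF6 and activates NF-kB and MAP kinases from the cell surface, while TRIF with TRAM, mainly from endosomes, activates IRF3 and interferon-beta and a later wave of NF-kB. The comparison addresses what remains of the response to LPS when the MyD88 branch is missing.

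All values are log2 ratios of LPS over mock. The labels do not state the direction of the ratio. The titles, and the rise of genes that LPS is known to induce, make LPS over mock the likely direction. In the LPS arrays 6973 to 10497 of the 13872 probes had a value, the median of an array was -0.07 to 0.02, and its median absolute deviation 0.369 to 0.567. The unswapped and swapped arrays of a mouse correlated with r between 0.31 and 0.521 across probes in 7 pairs, so single arrays were noisy and the dye orientations were averaged for each mouse. MyD88-/- mouse 4 had an unswapped array only and was the least like the others, with r = 0.531 against the mean of the wild-type mice and 0.596 against the mean of the other MyD88-/- mice. The Myd88 probe cannot check the genotype in such ratios. It read 1.34, 1.29, 1.75 and 1.14 in wild-type mice 1 to 4 and 1.10, 1.99, 0.87 and 4.70 in MyD88-/- mice 1 to 4. Ratios give no level, so the macrophage identity of the cells could not be checked by marker level.

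Macrophages of both genotypes responded to LPS within 2 hours, and the response of a small set of genes differed between them. These included the chemokines Ccl17, Cxcl2, Ccl7 and Ccl2, which rose less without MyD88 or did not pass the test there, the transcription factor Cebpd, which changed in opposite directions, and Txnip, which fell in wild-type cells. Of 8090 probes with values in at least 3 mice of each genotype, 570 rose (7.05%) and 621 fell (7.68%) in wild-type cells (limma, Benjamini-Hochberg adjusted p under 0.05), together 14.7% of the probes tested. In MyD88-/- cells 376 rose (4.65%) and 319 fell (3.94%), or 8.59%. With each array centred and scaled, fewer probes passed in wild-type and more in MyD88-/- cells. The wild-type count was still the larger, but the counts lay much closer together. The size of this gap therefore depends on how the arrays are scaled. The counts of fallen probes depend on single mice: without wild-type mouse 1 or 2 there were 403 in wild-type cells, and without MyD88-/- mouse 1, 3 or 4 there were 205, 199 and 192 in MyD88-/- cells. The genotype difference, MyD88-/- minus wild-type, passed the test for 21 probes (0.26%), of which 16 were lower (0.198%) and 5 higher (0.0618%) in MyD88-/- cells. The 18 of them with 1 gene symbol stand for 16 genes, and at all 21 the values of the genotypes did not overlap. Such separation was also seen at 274 probes in the lower direction (3.39%) and 280 in the higher direction (3.46%) of all those tested. In such bulk RNA, fewer responding cells and a smaller response per cell cannot be told apart. At an unadjusted p under 0.05 there were 699 probes, the 21 included. The median standard error of the difference was 0.31. The 21 calls rest on a spread shared by all 16 mouse values: with the 8 LPS mice alone 4 probes passed, for Cebpd, Prpf8, Plaur and Txnip, and without MyD88-/- mouse 2 the count was 13.

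**Figure D1:**
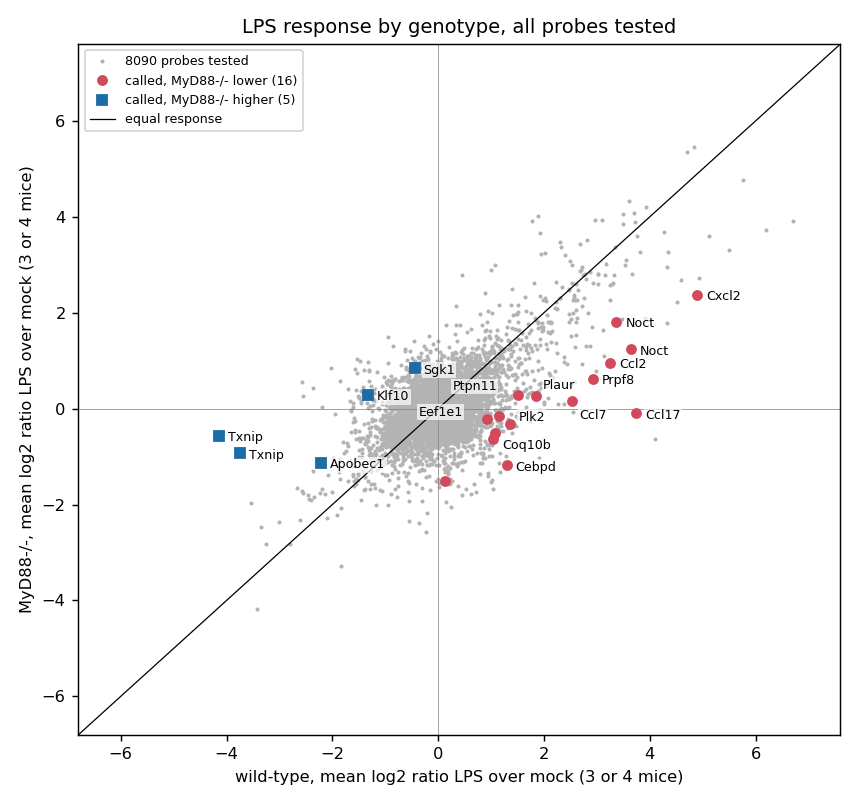
Mean log2 ratio of LPS over mock in wild-type (x axis) and MyD88-/- macrophages (y axis) for the 8090 probes tested, with the 16 probes called lower in MyD88-/- cells as red circles and the 5 called higher as blue squares. The called probes lie off the line of equal response, with Ccl17 (3.74 in wild-type, -0.10 in MyD88-/-) and Txnip (-4.15 and -0.57) the farthest of the called probes on either side.

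Across the 8090 probes the mean responses of the genotypes correlated with r = 0.629, a description across probes, which are not independent replicates. The spread of a mouse's response, its median absolute deviation over the 5759 probes measured in all 8 mice, was 0.341 ± 0.034 in wild-type and 0.292 ± 0.052 in MyD88-/- mice (SD, n = 4). The difference of -0.049 did not pass a two-sided exact permutation test (p = 0.171, with 0.0286 the smallest p that 4 mice against 4 allow).

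Chemokine genes held 4 of the calls, all of them lower without MyD88. Of 21 chemokine genes with a probe 17 were tested, and the 4 called were Ccl17, Cxcl2, Ccl7 and Ccl2, where 0.168% of all genes were called lower with 1 probe per gene. The median difference of the 17 was -0.30, against 0.02 over all 6548 genes tested. This median depends on the arrays and mice used. It was 0.01 with the unswapped arrays alone, -1.01 without MyD88-/- mouse 4, -0.512 without wild-type mouse 3, -0.149 without wild-type mouse 1, and -0.17 and -0.185 without MyD88-/- mouse 1 or 3. In wild-type cells 12 of the 17 rose and 1 fell, where 7.51% of all genes rose and 7.79% fell. In MyD88-/- cells 9 rose and 1 fell, where 5.1% of all genes rose and 4.08% fell.

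Ccl17, a chemokine that attracts T cells bearing the receptor CCR4, read 5.17, 2.61, 3.42 and 3.77 in wild-type mice 1 to 4 and -0.89, 0.40, 0.31 and -0.21 in MyD88-/- mice 1 to 4. Every wild-type mouse was far above every MyD88-/- mouse, and the latter lay on both sides of 0. The wild-type rise was 13.4-fold, and the MyD88-/- ratio did not pass the test (0.934-fold, adjusted p = 0.915). The difference of -3.84 ± 0.52 (SE) was a factor of 14.3 (limma adjusted p = 0.00235), the largest among the named calls, and did not pass with the unswapped arrays alone.

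Cxcl2, a neutrophil-attracting chemokine and classical NF-kB target, rose in both genotypes but by less without MyD88. Its values were 4.90, 4.46, 5.18 and 5.0 in wild-type mice and 1.56, 2.95, 3.03 and 1.96 in MyD88-/- mice. The wild-type mice lay close together and the highest MyD88-/- mouse was well below the lowest of them. The rise was 29.5-fold in wild-type and 5.19-fold in MyD88-/- cells, and the difference was -2.51 ± 0.30 (SE, adjusted p = 0.00117). The difference was -2.37 in unswapped and -2.38 in swapped arrays, but it did not pass with arrays centred and scaled (-2.06, adjusted p = 0.0782). The unswapped and swapped values are both smaller in size than -2.51. Cxcl2 read higher in swapped than unswapped arrays (5.41 and 4.36 in wild-type, 3.03 and 1.99 in MyD88-/- cells). MyD88-/- mouse 4 has the unswapped array only, so dye and genotype are not fully separated in -2.51. At several other calls, given below, the orientations lay farther apart.

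The promoter of Cxcl2 is shown because, among the windows searched, it was the only one of a called gene with a match to the NF-kB motif. RefSeq promoter entries (GRCm38.p6) were at hand for 12 of the 16 called genes, in 17 windows of the 250 bases before the start site. The promoters of Ccl7, Ccl2, Cebpd and Klf10 were not at hand and were not searched. In the windows 7 motifs were searched on both strands. NF-kB, searched as a letter pattern (GGG, purine, any base, any base, pyrimidine, pyrimidine, CC), occurs in 8.75% of the 6776 windows of the genes tested. The Cxcl2 window is chr5:90903649-90903898, plus strand, and the capitals mark overlapping NF-kB matches that begin 97 and 96 bases before the start site. A match describes letters, and no factor was measured here.
Cxcl2: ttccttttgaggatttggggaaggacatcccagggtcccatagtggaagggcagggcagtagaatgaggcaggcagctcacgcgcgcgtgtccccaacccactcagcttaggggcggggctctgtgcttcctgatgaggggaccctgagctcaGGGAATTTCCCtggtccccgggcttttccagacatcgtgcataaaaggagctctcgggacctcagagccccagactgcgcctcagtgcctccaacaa

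Ccl7 and Ccl2, chemokines that draw monocytes through the receptor CCR2, followed Ccl17 and Cxcl2. Ccl7 read 1.95, 2.44, 2.33 and 3.43 in wild-type mice and 0.38, -0.37, 0.56 and 0.05 in MyD88-/- mice, and the rise passed the test in wild-type cells only, at 5.80-fold. The difference was -2.38 ± 0.36 (SE, adjusted p = 0.00606). Ccl2 read 3.58, 3.44, 3.84 and 2.13 in wild-type and 0.82, 0.56, 1.67 and 0.78 in MyD88-/- mice. Wild-type mouse 4 was the lowest of its group and still above MyD88-/- mouse 3, the highest of the other. Ccl2 rose 9.50-fold in wild-type and 1.94-fold in MyD88-/- cells (difference -2.29 ± 0.35, adjusted p = 0.00789), and the difference did not pass with unswapped arrays alone. The Ccl2 difference was -1.78 in unswapped and -2.675 in swapped arrays. Ccl3, a chemokine for monocytes and T cells singled out after its values were seen, was not called (-2.54 ± 0.55, adjusted p = 0.0932), but passed when single arrays were fitted with a dye term (-2.81, adjusted p = 0.000185).

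**Figure D2:**
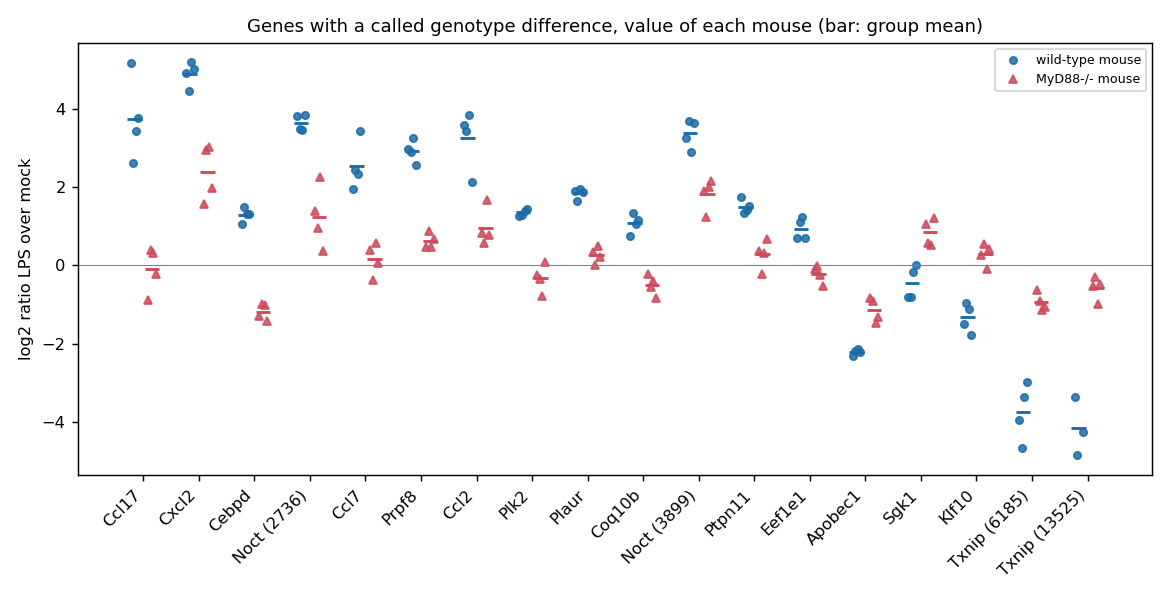
Log2 ratio of LPS over mock of each wild-type (blue circles) and MyD88-/- mouse (red triangles) at the 18 called probes with 1 gene symbol, with bars at the group means and probe numbers where a gene has several called probes. The values of the genotypes do not overlap at any of the 18. Cebpd reads above 1 in every wild-type mouse and near -1 in every MyD88-/- mouse. The group means also differ in sign at Ccl17, Plk2, Coq10b, Eef1e1, Klf10 and Sgk1.

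Immediate early genes and MAP kinase feedback genes, which switch on within minutes to hours of a stimulus, held calls in both directions. Of 26 tested, Cebpd and Plk2 were lower and Klf10 and Sgk1 higher in MyD88-/- cells. Of all genes 0.168% were called lower and 0.0611% higher. The median difference of the 26 was -0.44, against 0.02 over all genes. Of the 26 estimates 20 lay below 0, where 3156 of all 6548 genes tested did. In wild-type cells 14 of the 26 rose and 4 fell, where 7.51% of all genes rose and 7.79% fell. In MyD88-/- cells 8 rose and 4 fell, where 5.1% of all genes rose and 4.08% fell.

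Cebpd, a transcription factor of the C/EBP family that acts in acute inflammation, went in opposite directions in the genotypes. Its values were 1.06, 1.49, 1.30 and 1.31 in wild-type mice, all risen, and -1.29, -0.99, -1.02 and -1.42 in MyD88-/- mice, all fallen. Both responses passed the test (adjusted p = 0.000132 and 0.000416), at 2.45-fold and 0.441-fold. The difference of -2.47 ± 0.25 (SE, adjusted p = 0.00033) passed in all 28 alternatives and mouse omissions. It was -2.74 in unswapped and -2.11 in swapped arrays.

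Plk2, a polo-like kinase induced by growth factors and stress, read 1.27, 1.28, 1.40 and 1.44 in wild-type mice and -0.24, -0.34, -0.80 and 0.08 in MyD88-/- mice. The wild-type mice lay close together, and the MyD88-/- mice scattered around and below 0. It rose 2.55-fold in wild-type cells, and the difference was -1.67 ± 0.28 (SE, adjusted p = 0.0134). The adjusted p rose to as much as 0.0599 when MyD88-/- mouse 2 or 3 was left out, which ends the call.

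Klf10, a zinc-finger repressor known as a TGF-beta response gene, fell in wild-type cells and did not pass the test in MyD88-/- cells. It read -1.49, -0.95, -1.10 and -1.77 in wild-type mice and 0.27, 0.54, -0.09 and 0.43 in MyD88-/- mice (difference 1.62 ± 0.21, adjusted p = 0.00228). Sgk1, the serum- and glucocorticoid-inducible kinase, read -0.81, -0.82, -0.17 and 0.01 in wild-type and 1.06, 0.58, 0.51 and 1.22 in MyD88-/- mice. Its rise passed in MyD88-/- cells only (1.79-fold), with a difference of 1.29 ± 0.24 (SE, adjusted p = 0.0365). The call was lost on leaving out any MyD88-/- LPS mouse or wild-type LPS mouse 1 or 2, with an adjusted p of up to 0.137. It was also lost without wild-type E. coli mouse 3 or MyD88-/- E. coli mouse 1, 2 or 3. The same held with unswapped arrays alone (adjusted p = 0.0936) and with values required in only 2 mice of each LPS group (0.0648).

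Plaur, the urokinase receptor that focuses plasmin activity on the cell surface, was the call among 19 tested antimicrobial and inflammatory effectors. Wild-type mice read 1.91, 1.65, 1.93 and 1.88, and MyD88-/- mice 0.34, 0.00, 0.49 and 0.22. The rise was 3.58-fold in wild-type cells, and the 1.20-fold ratio in MyD88-/- cells did not pass the test. The difference of -1.58 ± 0.18 (SE, adjusted p = 0.00101) passed in all 28 alternatives and mouse omissions. The median difference of the 19 effectors was -0.07. Saa3, an acute-phase serum amyloid made by macrophages, gave -1.37 ± 0.29 without passing the test (adjusted p = 0.083), and passed with values required in all 4 mice (0.0439) or without wild-type mouse 2 (0.046).

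The promoters of Plaur and Plk2 are shown because they hold the letters of AP-1 and CRE, motifs that MAP kinase-driven factors read. In Plaur (chr7:24462233-24462482, plus strand) capitals mark AP-1, TGANTCA, 69 bases before the start site and C/EBP, TTGCNNAA read on the other strand, 59 bases before it. In Plk2 (chr13:110394794-110395043, plus strand) they mark an interferon-response-like motif (GAAA, 2 bases of any kind, GAAA), read on the other strand, 219 bases before the start site and CRE, TGACGTCA, 62 bases before it. These motifs occur in 5.42% (AP-1), 8.23% (C/EBP), 2.7% (interferon-response-like) and 1.93% (CRE) of the 6776 windows.
Plaur: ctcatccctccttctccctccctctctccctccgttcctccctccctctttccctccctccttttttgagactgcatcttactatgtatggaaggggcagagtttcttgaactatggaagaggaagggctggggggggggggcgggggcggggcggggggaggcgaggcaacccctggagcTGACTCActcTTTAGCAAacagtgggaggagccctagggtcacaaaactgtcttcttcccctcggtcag
Plk2: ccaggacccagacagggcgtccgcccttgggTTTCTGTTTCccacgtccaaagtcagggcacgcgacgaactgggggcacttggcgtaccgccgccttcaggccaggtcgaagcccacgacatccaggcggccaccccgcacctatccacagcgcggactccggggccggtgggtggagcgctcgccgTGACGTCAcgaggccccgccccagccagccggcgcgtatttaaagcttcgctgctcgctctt
Among the other called genes, the window of Ptpn11 held CRE and that of Coq10b the E-box CACGTG (in 8.07% of windows). Sgk1 had several alternative windows, more than any other called gene. The interferon-response-like motif, C/EBP and the E-box each lay in a different Sgk1 window, and its remaining windows held no match. The windows of Ccl17, Noct, Prpf8, Eef1e1, Txnip and Apobec1 held none of the 7 motifs.

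Noct, nocturnin, a clock-linked relative of the deadenylases, was the call among 13 tested genes of the mRNA decay list and was measured by 2 probes. Probe 2736 read 3.81, 3.47, 3.45 and 3.84 in wild-type mice and 1.39, 0.95, 2.24 and 0.36 in MyD88-/- mice. Probe 3899 read 3.25, 3.69, 2.89 and 3.63 in wild-type and 1.90, 1.22, 1.99 and 2.14 in MyD88-/- mice. Both probes rose in both genotypes, and on both every MyD88-/- mouse was below every wild-type mouse. The differences were -2.41 ± 0.39 (adjusted p = 0.0113) and -1.55 ± 0.28 (adjusted p = 0.0255). Probe 2736 gave -2.57 in unswapped and -1.94 in swapped arrays, and probe 3899 gave -1.62 and -1.73. The first did not pass without MyD88-/- mouse 2 (adjusted p = 0.0568). Neither passed with arrays centred and scaled or with unswapped arrays alone, and the second did not pass on leaving out any of 6 of the 8 LPS mice, with an adjusted p of up to 0.0931, or with the mouse number as a block.

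Prpf8, the core protein of the catalytic centre of the spliceosome, had the smallest adjusted p of all. It read 2.97, 2.89, 3.24 and 2.56 in wild-type mice and 0.46, 0.88, 0.46 and 0.68 in MyD88-/- mice. The rise was 7.55-fold in wild-type and 1.54-fold in MyD88-/- cells, both past the threshold, and the difference was -2.29 ± 0.21 (SE, adjusted p = 0.000121). It passed in all 28 alternatives and mouse omissions. No other gene of the 27 tested on the spliceosome list was called, and the median difference of that list was 0.02.

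Coq10b, a mitochondrial protein that binds coenzyme Q, read 0.74, 1.34, 1.05 and 1.15 in wild-type and -0.23, -0.55, -0.39 and -0.85 in MyD88-/- mice. It rose in wild-type and fell in MyD88-/- cells (adjusted p = 0.0371 for the fall), with a difference of -1.57 ± 0.20 (adjusted p = 0.00165). A second Coq10b probe, 7400, gave -0.11 ± 0.85, so the probes of this gene disagree within a wide error. Ptpn11, the phosphatase SHP2, read 1.75, 1.32, 1.42 and 1.5 in wild-type and 0.36, -0.23, 0.32 and 0.66 in MyD88-/- mice at probe 3330 (difference -1.22 ± 0.21, adjusted p = 0.0225). Probe 3240 of the same gene gave 0.36 ± 0.49 (adjusted p = 0.87), and the call at 3330 was lost on leaving out any of 6 of the LPS mice and with arrays centred and scaled. Eef1e1, a scaffold protein of the tRNA synthetase complex, gave -1.15 ± 0.21 (adjusted p = 0.0296). This did not pass on leaving out any one MyD88-/- LPS mouse, wild-type LPS mouse 2 or 3 or MyD88-/- E. coli mouse 1 (adjusted p up to 0.114). Nor did it pass with unswapped arrays alone (0.1625), with the mouse number as a block (0.083) or with values required in only 2 mice of each LPS group (0.0558). The remaining called probes, 2659, 3690 and 5583, have no symbol here and gave -1.30, -1.66 and -1.63.

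Txnip, which inhibits thioredoxin and restrains glucose uptake, was the largest difference in the other direction. Probe 6185 read -3.94, -4.67, -3.37 and -2.97 in wild-type mice and -0.64, -0.90, -1.13 and -1.05 in MyD88-/- mice. Probe 13525 read -3.36, -4.85 and -4.25 in wild-type mice 1, 2 and 4, with no value in mouse 3, and -0.52, -0.30, -1.0 and -0.47 in MyD88-/- mice. Every wild-type mouse lay far below every MyD88-/- mouse at both probes. The wild-type fall was to 0.075 and 0.0563 of mock. The MyD88-/- ratios, 0.524 and 0.673 of mock, did not pass the test. The differences were 2.81 ± 0.44 (adjusted p = 0.011) and 3.58 ± 0.43 (adjusted p = 0.00165), of which the first did not pass with unswapped arrays alone or with floor values kept. Probe 6185 gave 2.535 in unswapped and 3.16 in swapped arrays, and probe 13525 gave 4.47 and 2.61. No other gene of the 14 tested on the glucose and thioredoxin list was called, and its median difference was 0.01. Hk2, hexokinase 2, rose 3.17-fold in wild-type and 2.32-fold in MyD88-/- cells.

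Apobec1, a cytidine deaminase that edits Apob mRNA, fell in both genotypes, and by less without MyD88. It read -2.32, -2.18, -2.14 and -2.22 in wild-type mice and -0.84, -0.91, -1.47 and -1.31 in MyD88-/- mice. The difference was 1.08 ± 0.18 (SE, adjusted p = 0.015), and it did not pass without wild-type mouse 1 or MyD88-/- mouse 1 or 2 (adjusted p up to 0.0719), with the mouse number as a block (0.0563) or with arrays centred and scaled (0.223).

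Most inflammatory cytokines tested rose in each genotype, and no cytokine passed the test of the genotype difference. Of 13 tested, 8 rose in wild-type cells and 8 in MyD88-/- cells, where 7.51% and 5.1% of all genes rose. Of the 13 differences 10 lay below 0, where 3156 of all 6548 genes tested did. Their median was -0.29, and it was -0.652 without wild-type mouse 2, -0.519 without MyD88-/- mouse 3 and -1.22 with values required in 3 mice of all 4 groups. At 4 of the 13 genes the MyD88-/- mice lay wholly below the wild-type mice, where 3.44% of all genes did. At 1 gene they lay wholly above, where 3.45% did. Tnf, the early macrophage cytokine, came nearest to a call. It read 5.25, 4.56, 5.84 and 4.82 in wild-type and 3.20, 3.54, 3.76 and 3.87 in MyD88-/- mice, with no overlap. Tnf rose 34.7-fold and 12.1-fold, and the difference was -1.52 ± 0.31 (SE, adjusted p = 0.0657). It passed without wild-type mouse 2 of the LPS or of the E. coli group, or with only the probes measured in every mouse.

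Il1a, which encodes the alarmin interleukin-1 alpha, read 5.63, 4.59, 5.47 and 6.33 in wild-type and 1.97, 3.94, 3.00 and 4.29 in MyD88-/- mice (difference -2.21 ± 0.60, adjusted p = 0.242). Il1rn, the interleukin-1 receptor antagonist, gave -1.22 ± 0.31 (adjusted p = 0.196), and Il10, the anti-inflammatory cytokine, -2.29 ± 0.83 (adjusted p = 0.447, with no value in MyD88-/- mouse 4). None of these 3 overlapped between the genotypes and none passed, though Il1rn did with a dye term over single arrays (adjusted p = 0.0262). Il1b, interleukin-1 beta, depends on 1 mouse. It read 6.91, 5.81, 6.36 and 5.69 in wild-type mice and 1.5, 3.27, 2.88 and 7.21 in MyD88-/- mice, the last value from the mouse with a single array. The difference was -2.48 ± 0.93 (adjusted p = 0.448) with that mouse and -3.64 (adjusted p = 0.0225) without it. A second Il1b probe, 11722, gave ratios of -0.52 and -0.30 and a difference of 0.22, so the probes disagree.

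Several well-known LPS genes had too few MyD88-/- values to be tested. Il6, the acute-phase cytokine, read 4.67, 2.90, 1.98 and 5.05 in wild-type mice and had a value in MyD88-/- mouse 2 only, 0.62. Il12b, a subunit of interleukin-12, read 4.56, 3.39, 3.24 and 5.14 in wild-type and -0.66 and 3.72 in MyD88-/- mice. The following were singled out after their values were seen. Ptgs2, inducible cyclooxygenase, read 3.34 to 7.78 in wild-type mice and 1.43 and 1.71 in the MyD88-/- mice measured. Nos2, inducible nitric oxide synthase, read 1.44 to 4.95 against -0.12 and -0.29, and Csf2, the growth factor GM-CSF, 1.23 to 4.72 against 0.64 and 0.90. With at least 2 mice of each group required, none of these passed (Il12b -2.55, adjusted p = 0.701; Csf2 -2.58, 0.527; Nos2 -3.16, 0.344; Ptgs2 -4.53, 0.332). Other cytokine and effector genes that missed the filter went both ways with at least 2 mice of each group required. Slpi gave 0.90, Lcn2 0.60, Ptges 0.33, Mmp9 -0.28, Marco -0.25 and Csf3 -1.02, and none of them passed. Over the whole array 442 probes had values in at least 3 wild-type but at most 1 MyD88-/- mouse, and 378 the reverse, so probes of this kind occurred in both genotypes. Cd14, Nfkbia and Gapdh also missed the filter, and Ticam1, Ticam2 and Irak3 have no probe under these symbols.

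**Figure D3:**
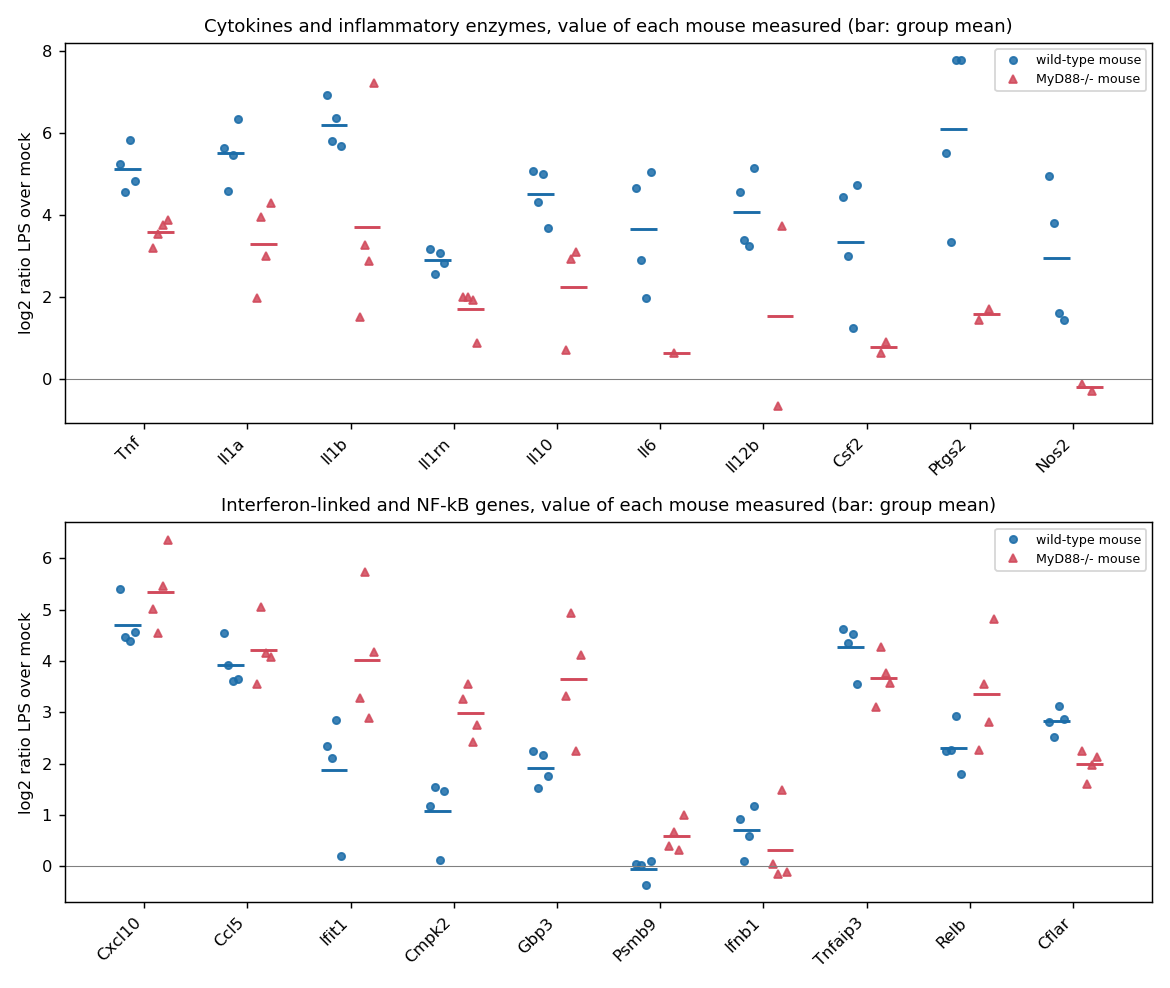
Log2 ratio of LPS over mock in each wild-type (blue circles) and MyD88-/- mouse (red triangles) with a value, for cytokines and inflammatory enzymes (top) and for interferon-linked and NF-kB genes (bottom), with bars at the group means. None of these genes was called. Among the genes tested, the MyD88-/- mice lie wholly below the wild-type mice at Tnf, Il1a, Il1rn, Il10 and Cflar. They lie wholly above them at Cmpk2, Psmb9 and, by a narrow margin, Gbp3 and Ifit1. Il6, not tested, has a single MyD88-/- value.

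Interferon-stimulated genes, which lie downstream of interferon-beta and IRF3, responded in part in each genotype. Of 36 tested, 12 rose and 1 fell in wild-type cells, where 7.51% of all genes rose and 7.79% fell. In MyD88-/- cells 20 rose and 1 fell, where 5.1% of all genes rose and 4.08% fell. The others did not pass the test. No member passed the test of the genotype difference. Of the 36 estimates 28 lay above 0, where 3392 of all 6548 genes tested did. At 7 of the 36 genes the MyD88-/- mice lay wholly above the wild-type mice, where 3.45% of all genes did. At 0 genes they lay wholly below, where 3.44% did. The median difference was 0.47, between 0.33 and 0.71 over the 28 alternatives and mouse omissions. The list median by mouse was 0.65, 1.00, 0.54 and 0.29 in wild-type and 1.19, 1.43, 1.01 and 0.95 in MyD88-/- mice over the 32 genes with a value in all 8 mice. Wild-type mouse 2, the highest of its group, was above MyD88-/- mouse 4, the lowest of the other.

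Cmpk2, a mitochondrial nucleotide kinase induced by interferon, read 1.17, 1.55, 0.12 and 1.47 in wild-type and 3.27, 3.54, 2.42 and 2.76 in MyD88-/- mice. It rose 2.11-fold and 7.98-fold, with a difference of 1.92 ± 0.49 (adjusted p = 0.199). The call changes with the model: adjusted p was 0.0283 with a dye term over single arrays. Gbp3, a guanylate-binding GTPase of cell-autonomous defence, rose 3.79-fold and 12.6-fold (1.74 ± 0.52, adjusted p = 0.306). Ifit1, which binds viral RNA, rose 3.68-fold and 16.2-fold (2.14 ± 0.85, adjusted p = 0.509), and wild-type mouse 4 at 0.21 was far below the other wild-type mice at 2.10 to 2.85. The lowest MyD88-/- mouse, at 2.89, was just above the highest wild-type mouse. Psmb9, an immunoproteasome subunit, gave 0.65 ± 0.20 (adjusted p = 0.31).

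Cxcl10 and Ccl5, chemokines driven by IRF3 and interferon, rose strongly in both genotypes, and neither difference passed. Cxcl10 rose 26.0-fold in wild-type and 40.7-fold in MyD88-/- cells, and Ccl5 15.2-fold and 18.4-fold. Cxcl10 read 5.40, 4.47, 4.38 and 4.56 in wild-type and 5.01, 4.55, 5.46 and 6.37 in MyD88-/- mice (0.65 ± 0.39, adjusted p = 0.686). Ccl5 read 4.55, 3.92, 3.60 and 3.66 against 3.54, 5.05, 4.16 and 4.07 (0.28 ± 0.31, adjusted p = 0.838, and -0.0054 without MyD88-/- mouse 2). The values of the genotypes overlapped at both. Ifnb1, interferon-beta itself, passed the test in neither genotype at 2 hours (0.70 and 0.32), with a difference of -0.39 ± 0.41 (adjusted p = 0.823). A p that misses the threshold does not show that the genotypes responded alike.

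NF-kB pathway and feedback genes rose in both genotypes in equal number: 13 of 17 tested in wild-type and 13 in MyD88-/- cells. Of all genes 7.51% rose in wild-type and 5.1% in MyD88-/- cells. Equal counts do not show a response of equal size. No member was called for the difference, and the median was 0.02. Tnfaip3, the feedback inhibitor A20, read 4.62, 4.36, 4.54 and 3.55 in wild-type and 3.10, 4.28, 3.76 and 3.58 in MyD88-/- mice (-0.59 ± 0.69, adjusted p = 0.84). Relb, a subunit of the alternative NF-kB pathway, gave 1.05 ± 0.44 (adjusted p = 0.533). Cflar, the caspase-8 inhibitor c-FLIP, was lower in every MyD88-/- mouse (1.61 to 2.24) than in any wild-type mouse (2.52 to 3.13), without passing the test (-0.84 ± 0.20, adjusted p = 0.139), which it did with a dye term (0.0118).

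Components of the Toll-like receptor pathway itself showed no called difference among 19 tested, with a median of 0.08. Tlr2, the receptor for bacterial lipoproteins, rose 5.6-fold in wild-type and 8.44-fold in MyD88-/- cells (0.59 ± 0.26, adjusted p = 0.536). Irak1, the kinase that MyD88 recruits, gave 0.08 ± 0.16, Traf6, its ubiquitin ligase partner, 0.32 ± 0.30, and Irf3, the factor of the TRIF branch, -0.08 ± 0.51. Tlr4 gave 1.08 ± 0.93 from 3 mice of each genotype. The difference at the Myd88 probe was 0.78 ± 0.60, and -0.062 without MyD88-/- mouse 4.

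**Figure D4:**
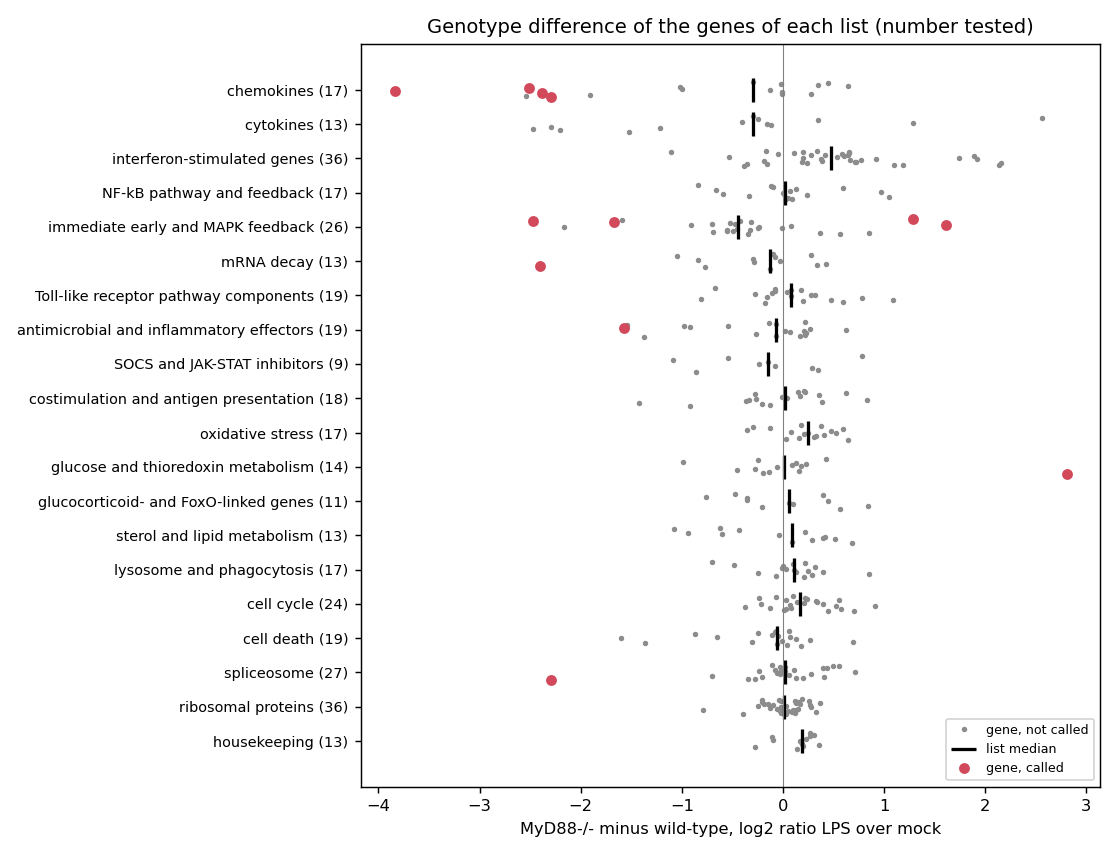
Genotype difference (MyD88-/- minus wild-type, log2 ratio of LPS over mock) of every tested gene of 20 lists, with 1 probe per gene, black bars at the list medians and red points for called genes. The chemokine list holds 4 called genes and the immediate early list 4, of which 2 lie on each side of 0. The median of the interferon-stimulated genes is 0.47.

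The remaining lists held no call. No gene was called among 9 SOCS and JAK-STAT inhibitors (median -0.15), 18 costimulation and antigen presentation genes (0.02), 17 oxidative stress genes (0.25), 11 glucocorticoid- and FoxO-linked genes (0.06), 13 sterol and lipid genes (0.09), 17 lysosome and phagocytosis genes (0.11), 24 cell cycle genes (0.17) or 19 cell death genes (-0.06). Among 36 ribosomal protein genes and 13 housekeeping genes there was no call either, with medians of 0.01 and 0.18. Of the 17 lysosome and phagocytosis genes 8 fell in wild-type cells, where 7.79% of all genes fell, and 3 fell in MyD88-/- cells, where 4.08% did. Ctsl, the lysosomal protease cathepsin L, read -1.23, -0.83, -0.99 and -0.91 in wild-type and -0.13, 0.00, 0.00 and -0.44 in MyD88-/- mice (0.85 ± 0.19, adjusted p = 0.102, and 0.00302 with a dye term).

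Markers of other cell types were examined in the same ratios. None of the 8 macrophage markers tested was called for the difference (median 0.06), nor any of 7 neutrophil (-0.49), 3 B cell (-0.51), 2 dendritic cell (-0.59), 2 erythroid (0.17), 1 T cell (0.16) and 1 NK cell (-0.66) markers, and no stromal marker was tested. Ratios to mock hold no marker level, so the cell make-up of the cultures and its part in the results was not tested.

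With live E. coli in place of LPS, the wild-type and MyD88-/- responses were set side by side at the called genes. The E. coli genotype difference was called at 50 of 7325 probes (0.683%), 13 higher and 37 lower. For Ccl17 it was -5.80 ± 0.52 beside -3.84 ± 0.52 with LPS, for Cxcl2 -3.39 ± 0.30 beside -2.51 ± 0.30, for Cebpd -3.0 ± 0.25 beside -2.47 ± 0.25, for Prpf8 -2.75 ± 0.21 beside -2.29 ± 0.21, and for Plaur -2.07 ± 0.18 beside -1.58 ± 0.18. For Txnip it was 2.95 ± 0.47 beside 2.81 ± 0.44 at probe 6185, and for Klf10 1.82 ± 0.21 beside 1.62 ± 0.21. It was nearer to 0 than with LPS for Txnip at probe 13525 (2.68 ± 0.40 beside 3.58 ± 0.43), Coq10b (-1.54 ± 0.20 beside -1.57 ± 0.20), Ptpn11 (-1.11 ± 0.21 beside -1.22 ± 0.21) and Eef1e1 (-1.14 ± 0.21 beside -1.15 ± 0.21). Tnf, not called with LPS, was called with E. coli at -2.25 ± 0.31 (adjusted p = 0.00137), as were Il1a at -3.72 (adjusted p = 0.00692) and Il1b at -4.90 (adjusted p = 0.0216). The same-numbered mice of a genotype may share mock RNA between the stimuli, so these values are not independent and stand side by side only. The difference between the genotype differences was called at 0 of 7325 probes by limma (smallest adjusted p = 0.9998, 206 probes at an unadjusted p under 0.05), also in the alternatives run. No gene's genotype difference is therefore shown to differ between LPS and E. coli.

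**Figure D5:**
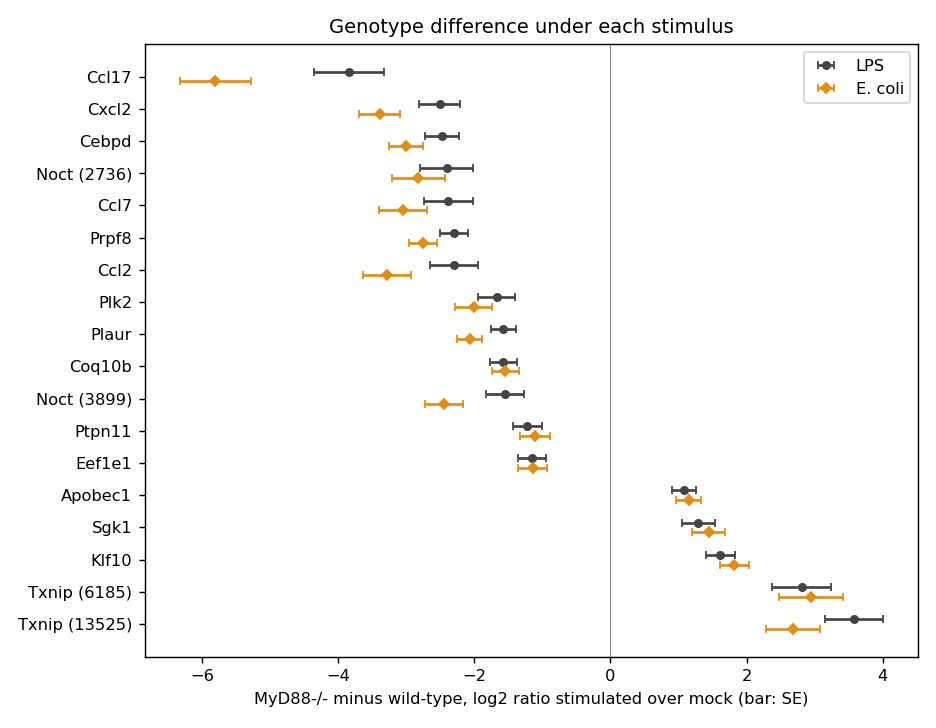
Genotype difference (MyD88-/- minus wild-type, log2 ratio of stimulated over mock) with LPS (dark circles) and with live E. coli (orange diamonds) at the 18 called probes with 1 gene symbol; bars are standard errors. With LPS the values run from -3.84 at Ccl17 to 3.58 at Txnip (probe 13525), and with E. coli these probes read -5.80 and 2.68.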

How the data were processed

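RNA of LPS-treated and mock cells of each mouse was hybridised in 2 dyes on spotted arrays, which were scanned with a GenePix 4000B scanner and quantified with GenePix Pro 3.0, then analysed in BASE and GeneSpring, per the labels' protocols. The authors deposited log2 ratios per probe, read here as LPS over mock. Background correction, normalization, spot filtering and ratio direction are not given in the sources used here. All 7 pairs of dye orientations correlated above 0, so no array was turned. Values at a floor of -6.64, log2 of 0.01, held 2152 values of the LPS arrays and were set to missing, and the dye orientations were averaged for each mouse.

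The test was limma 3.58.1 in R 4.3.3 with 1 mean per group over 16 mouse values, which pools the spread of the 4 groups, on probes with values in at least 3 mice of both LPS groups, with Benjamini-Hochberg adjustment over 8090 probes and calls at an adjusted p under 0.05. Precision is limited by how many arrays there are, and MyD88-/- mouse 4 rests on 1 array. At probes that read differently by dye, the average of its group is therefore not balanced over the orientations. The script was tested on simulated data. A gene was represented in lists by the probe with most values on the LPS arrays. Of 13872 probes, 11480 have 1 gene symbol, 50 several and 2342 none, and 11437 of the former were matched by Entrez number. Genes were named as the called probes with a symbol, the 3 of smallest p in each list and a set of fixed genes, with exceptions stated. The arrays, genes and lists were chosen with earlier results of these data known. The mouse numbers of the genotypes belong to different animals, and no pairing was used. Deviations from the group mean correlated with r from -0.037 to 0.200 between same-numbered mice, the highest for mouse 2. Between differently numbered mice r ran from -0.12 to 0.066. Whether the mice of number 2 shared a batch was not tested. The alternatives were 12 other settings and leaving out each of 16 mouse values. The RefSeq promoter table gave sequences, on GRCm38.p6. No file column was left unmapped (0).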

Additional observations from a re-analysis of the deposited data

Results flagged for a closer look

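In 7 of 148 groups of 4 mice examined among the named genes, 1 mouse stood apart from the other 3, with a gap to the nearest beyond Dixon's critical value for 4. Chance alone sets apart a mouse in about 1 of 20 such groups of random values. Many named genes were chosen for a small p in these data, so that rate need not hold here. Whether 7 differs from chance was not tested. In MyD88-/- mouse 4, the mouse with a single array, Il1rn read 0.871 against 1.92 to 1.99 in the others, and Keap1 read -0.961 against -0.239 to -0.103. Ifnb1 read 1.49 in MyD88-/- mouse 3 and -0.155 to 0.0454 in the other MyD88-/- mice. In wild-type mouse 1 Socs1 read 2.88 against 1.04 to 1.25, and Rpl10 -0.509 against -0.243 to -0.194. Gas6 read 1.79 in wild-type mouse 2 and -0.512 to -0.400 in the others, and Psmb9 read -0.364 in wild-type mouse 3 against 0.0323 to 0.102.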

How the results depend on the processing

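The count of 21 genotype differences moved by more than 1.5 times under 4 settings: it was 4 with the 8 LPS mice alone, 12 with unswapped arrays alone, 42 when single arrays were fitted with a dye term and the mouse as a random term, and 13 without MyD88-/- LPS mouse 2. Of the 21 calls, 4, 11, 21 and 13 remained under these. Over all single mice left out the count lay between 13 and 25, and the cause of the changes was not tested. With the mouse number as a replicate block 20 probes were called, 17 of the 21 among them, and this fit added calls that include Cmpk2. Scaling the arrays gave 18 calls with 16 of the 21, and requiring values in all 4 mice gave 30 with 20 of them. The total counts of responding probes in each genotype stayed within 1.5 times. The gap between the genotypes in these totals did not hold its size, and was much smaller with each array centred and scaled. The counts of fallen probes moved by more than 1.5 times. They were 403 in wild-type cells without mouse 1 or 2, and 192 to 205 in MyD88-/- cells without mouse 1, 3 or 4. The 0 calls between stimuli stayed at 0. The spread of a mouse's response passed the exact permutation test in no setting (lowest p = 0.0571). Differences that had not passed changed sign with unswapped arrays alone, Irak1 to -0.124 and Irf3 to 0.264, or with single mice left out, where Myd88 (0.78) and Tlr4 (1.08) each turn on 1 mouse: Myd88 ranged from -0.062 (without MyD88-/- mouse 4) to 1.21, Tlr4 from -0.112 (without MyD88-/- mouse 1) to 1.75, Irf3 from -0.392 to 0.326 and Ccl5 from -0.0054 (without MyD88-/- mouse 2) to 0.497. Of the other gene values, 2163 stayed on their side of the threshold, 67 no longer passed it and 11 newly passed it. Of the list medians, which have no test, 538 moved by less than their spread and 22 by more. Precision is limited by 4 mice a group and by dye orientations that correlate weakly.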
